A study of Sus scrofa with 2 samples.

Results

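PPARG and CEBPA, the pair of transcription factors that drive fat cell differentiation, and CD36 and TUSC5, membrane protein genes expressed in fat cells, were followed in backfat, a subcutaneous fat depot, of castrated and intact male Huainan pigs. They were taken by name from a table of mRNA isoforms and accounted for 5 transcripts of 4 genes, out of 2645 transcripts of 2266 gene identifiers. The castrated group was 3 castrated male Huainan pigs aged 300 days, and the intact group was 3 intact male Huainan pigs of the same age. Both groups received a standard diet with free access to water, and no age at castration was given in the sources used here. The series holds 1 sample and its mRNA table gives a single FPKM value per transcript for each group (FPKM, or fragments per kilobase of transcript and per 1000000 mapped fragments). Whether the RNA of the 3 pigs was pooled or their values were averaged is not stated. No spread between animals could therefore be computed, no test between groups was made, and every fold below compares 2 values that have no replicate check.

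The table does not hold every transcript. All its q-values, computed by the authors, lay below 0.05 (the largest was 0.0499 in the authors' deposited table), so a gene is in it only because the authors called it different between castrated and intact pigs. All 4 genes were thus selected on the comparison described here, and a gene that is not listed is not known to be unchanged. In whole tissue, more cells of a type and more RNA per cell cannot be told apart. The sources used here give no number of reads behind the values.

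PPARG encodes a nuclear receptor that binds DNA together with a retinoid X receptor and is switched on by fatty acid derivatives and by thiazolidinedione drugs. CEBPA encodes a basic leucine zipper factor, and in mouse fat cell precursors each of these factors raises and maintains the other while both bind near most genes of the mature fat cell. CD36 encodes a membrane glycoprotein that helps long-chain fatty acids into cells, and it is also made by macrophages, capillary endothelium and platelets. TUSC5, now also named TRARG1, encodes a small membrane protein that travels with the glucose transporter GLUT4. Both CD36 and TUSC5 are known as PPARG targets from mouse cells.

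All 4 genes had higher levels in castrated than in intact pigs. The ratios of summed FPKM ran from 2.75 for PPARG to 4.03 for TUSC5. A size rule was used to describe changes: log2(FPKM + 1) had to differ by at least 1, and the group with the higher level had to reach 1 FPKM. All 4 genes and all 5 transcripts passed it upwards. Of the 2247 genes listed (transcripts summed by symbol, or by identifier where there was no symbol), 80.1% passed the rule in either direction, 40.9% upwards and 39.3% downwards. Of the 2645 transcripts 82.5% passed, 42.6% upwards and 39.9% downwards. Passing the rule is therefore the usual state of a listed gene, and the count over the members adds nothing to their having been listed.

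**Figure D1:**
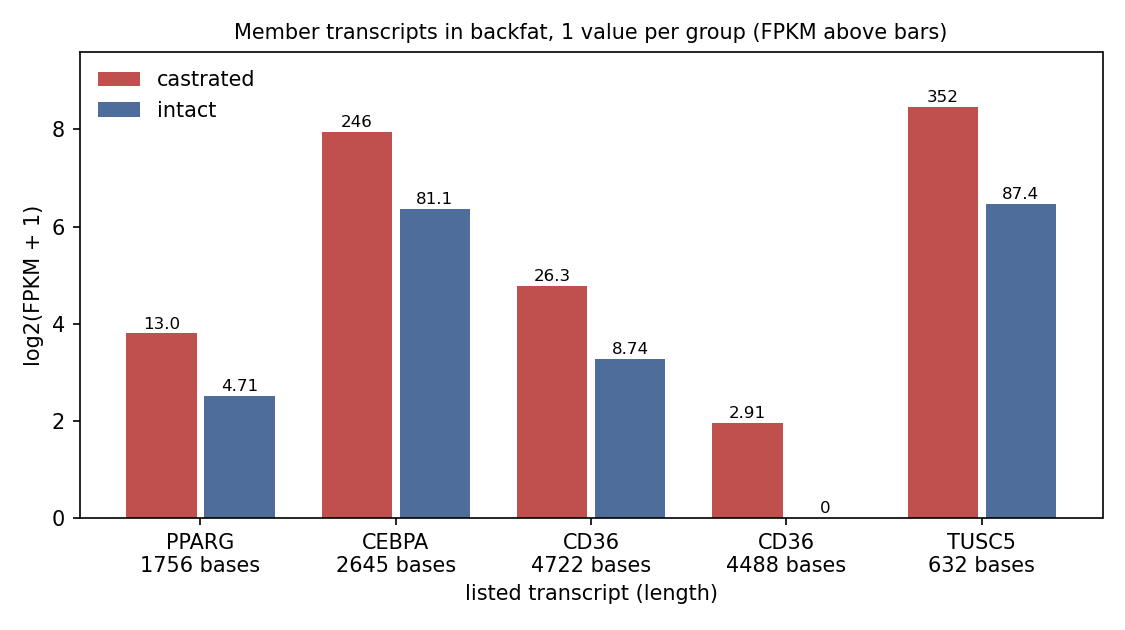
Level of each listed transcript of PPARG, CEBPA, CD36 and TUSC5 as log2(FPKM + 1) in backfat of castrated and intact pigs, with 1 value per group and no error; the numbers above the bars are FPKM. Each of the 5 transcripts was higher in the castrated group, and the CD36 transcript of 4488 bases was listed at 0 in the intact group.

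PPARG (gene ID 397671) stood at 12.95 FPKM in castrated pigs and 4.71 FPKM in intact pigs. It had the lowest level and the smallest ratio of the 4 genes, 2.75-fold, or 1.29 on the log2(FPKM + 1) scale. Its single listed transcript was 1756 bases long, and the authors' deposited table gave it a q-value of 0.0419. By that q-value it ranked 2461 of 2645 transcripts, among the last to be listed. FPKM multiplied by length in kilobases, which is roughly the number of fragments per 1000000, was 22.7 in castrated and 8.26 in intact pigs. PPARG thus rested on the fewest reads of the 4 genes. The RefSeq gene table for the later assembly Sscrofa11.1 holds 8 PPARG transcripts, and no value for the others was listed. The ratio therefore describes 1 isoform, and levels of PPARG over all isoforms are not known from it.

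CEBPA (gene ID 397307) stood at 246 FPKM in castrated pigs and 81.1 FPKM in intact pigs, a ratio of 3.03 (log2 difference 1.59). Its listed transcript, of 2645 bases, is the only one in the RefSeq table. CEBPA ranked 50 of 2247 listed genes by level in castrated pigs and 123 in intact pigs. It had the most fragments of the 4 genes, about 651 per 1000000 in castrated and 215 in intact pigs. The authors' deposited table gave a q-value of 0.0139.

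CD36 (gene ID 733702) was listed with 2 transcripts, whose sum was 29.2 FPKM in castrated pigs and 8.74 FPKM in intact pigs, a ratio of 3.34 (log2 difference 1.63). The transcript of 4722 bases carried most of it, at 26.3 FPKM in castrated and 8.74 FPKM in intact pigs, 3.01-fold higher. The transcript of 4488 bases stood at 2.91 FPKM in castrated pigs and was listed at 0 in intact pigs, so no fold is given for it. The shorter transcript made up 9.95% of the CD36 sum in castrated pigs. The gene's direction does not rest on it, since the longer transcript alone gave a log2 difference of 1.49. A listed 0 was common: 318 transcripts, or 12.0%, were at 0 in intact pigs, and 31 of them had a higher level in castrated pigs than the short CD36 transcript. The longer transcript is still among the 11 CD36 transcripts of the RefSeq table for Sscrofa11.1, and the shorter one is not. The q-values in the authors' deposited table were 0.00494 for the longer and 0.000807 for the shorter transcript.

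TUSC5 (gene ID 100126201) had the highest level and the largest ratio, at 352 FPKM in castrated pigs and 87.4 FPKM in intact pigs, 4.03-fold higher (log2 difference 1.999). Among 2247 listed genes it ranked 29 by level in castrated pigs and 111 in intact pigs. Its listed transcript is short, 632 bases, so this FPKM stands for about 223 fragments per 1000000 in castrated and 55.3 in intact pigs, fewer than CEBPA in both groups. Per unit length TUSC5 was the higher of the pair, and per fragment CEBPA was. The authors' deposited table gave TUSC5 a q-value of 0.000139, at rank 345 of 2645.

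The order of the levels per length, summed over listed transcripts, was the same in both groups: TUSC5, CEBPA, CD36 and PPARG. Further RefSeq transcripts of CD36 and PPARG had no listed value, so their places over all isoforms are not known. In castrated pigs TUSC5 exceeded CEBPA 1.43-fold, and in intact pigs 1.08-fold; without replicates it cannot be said whether either step exceeds the spread between animals. A wide gap separated CEBPA from CD36, 8.42-fold in castrated and 9.28-fold in intact pigs. CD36 exceeded PPARG 2.26-fold in castrated and 1.86-fold in intact pigs.

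Ratios between the genes within a group do not depend on the scaling of that group's library. The ratio of CEBPA to PPARG was 19.0 in castrated and 17.2 in intact pigs. For the listed transcripts it thus differed 1.10-fold between the groups, while PPARG differed 2.75-fold and CEBPA 3.03-fold. Only 1 PPARG transcript had a value, against 8 in the RefSeq table, so the balance of the 2 factors over all isoforms is not known. The ratio of TUSC5 to PPARG differed most, at 27.2 in castrated and 18.6 in intact pigs, 1.46-fold. CD36 to CEBPA was 0.119 in castrated and 0.108 in intact pigs. The other pairs lay between these, and no interval can be given for any of them.

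**Figure D2:**
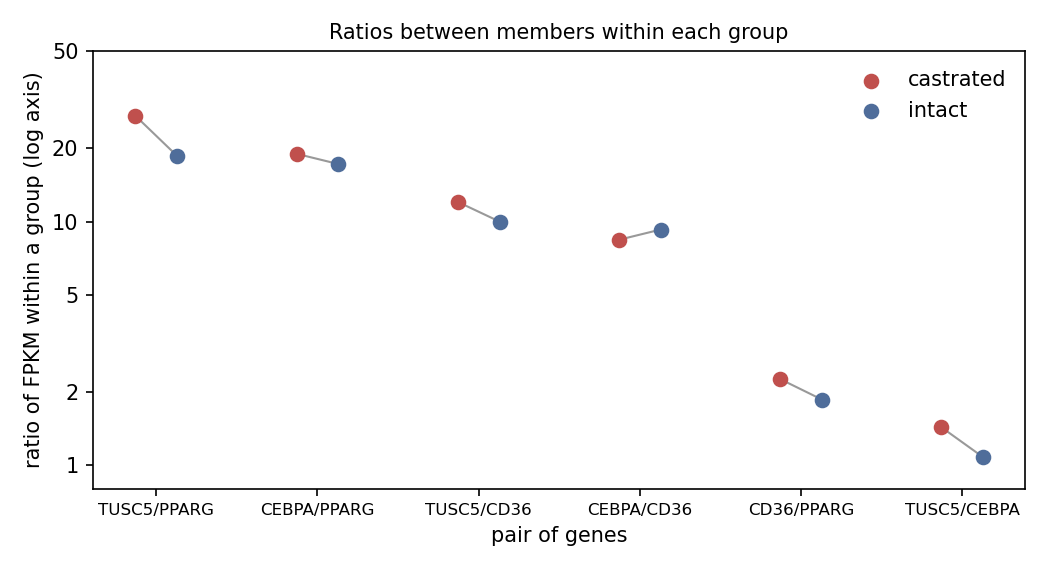
FPKM ratios between PPARG, CEBPA, CD36 and TUSC5, summed over listed transcripts only, within the castrated and the intact group. The axis is logarithmic, with 1 value per group and no error, and lines join the values of a pair. CEBPA/PPARG was 19.0 in castrated and 17.2 in intact pigs, and TUSC5/PPARG, at 27.2 in castrated and 18.6 in intact pigs, differed most.

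Set against the other rises in the table, the ratio of TUSC5 was near the median. Those of PPARG, CEBPA and the longer CD36 transcript were below it. Among the 1047 transcripts that were higher in castrated pigs and above 0 in intact pigs, the median ratio was 3.87, and 83.4% had a larger ratio than PPARG, 75.1% than CEBPA, 75.9% than the longer CD36 transcript and 47.2% than TUSC5. By level, CEBPA and TUSC5 stood high, at percentiles 98.3 and 99.0 of the listed transcripts in castrated pigs and 95.4 and 95.8 in intact pigs. PPARG stood at percentile 76.2 in castrated and 60.3 in intact pigs.

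**Figure D3:**
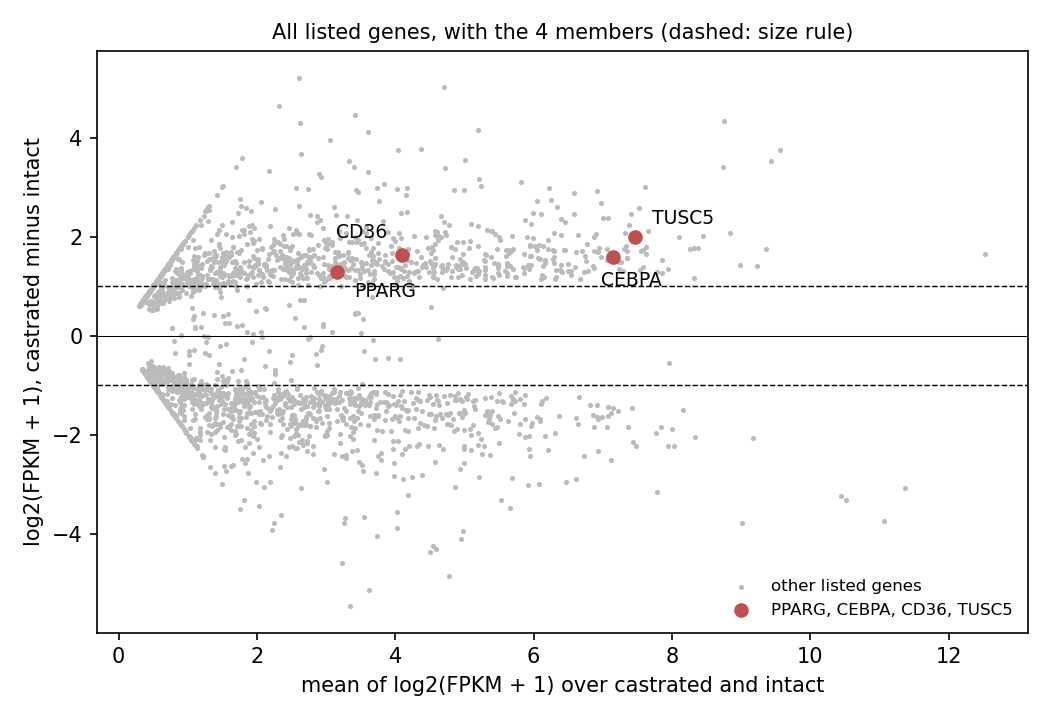
Difference in log2(FPKM + 1), castrated minus intact, against the mean level of the 2 groups for each of the 2247 listed genes, with the 4 members in red; dashed lines mark the size rule of 1. The members lie at 1.29 to 1.999, within the upper band of listed genes, and the gap around 0 is there because only called transcripts were listed.

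The scale between the libraries matters for these sizes. The median log2 difference of the 1313 transcripts that reached 1 FPKM in castrated and intact pigs alike was 1.14. Relative to it the differences were 0.15 for PPARG, 0.45 for CEBPA, 0.50 for CD36 and 0.86 for TUSC5, all still positive and none past the rule. The table then split into 133 transcripts higher and 1146 lower, against 1126 higher and 1055 lower without the shift. Summed per gene, the median was 0.43 over 1248 genes, and relative to it PPARG, at 0.86, no longer passed while CEBPA (1.15), CD36 (1.20) and TUSC5 (1.56) did. These medians come from called transcripts alone, which avoid 0, and are no estimate of a difference in scale.

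Genes around the 4 members were read from 6 lists: early regulators of fat cell differentiation, partners and coregulators of PPARG, known targets of PPARG, known targets of CEBPA, fatty acid uptake, and GLUT4 trafficking. The lists name 138 genes, of which 36 were listed. Of these, 29 were higher past the rule, 4 were lower and 3 passed in neither direction, with a median log2 difference of 1.74. Over all 2247 listed genes the median was 0.26, with 40.9% higher and 39.3% lower. Relative to the transcript median of 1.14, 9 of the 36 were higher and 5 lower. Of all 2247 listed genes 110 were then higher and 1008 lower. Relative to the gene median of 0.43, 21 of the 36 were higher and 4 lower, beside 502 higher and 974 lower of all 2247. Under the first of these shifts 4 of the PPARG targets, 1 gene of fatty acid uptake and 0 of GLUT4 trafficking stayed above the rule, and GK, PLIN2 and TCF7L2 turned negative. GK was at a listed 0 in intact pigs, so its turn comes only from subtracting the shift on the log2(FPKM + 1) scale. Several genes stand on more than 1 list, so the lists are not independent. They were also chosen with earlier results of these data known, so their counts are a description only, and no test of the lists was made.

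**Figure D4:**
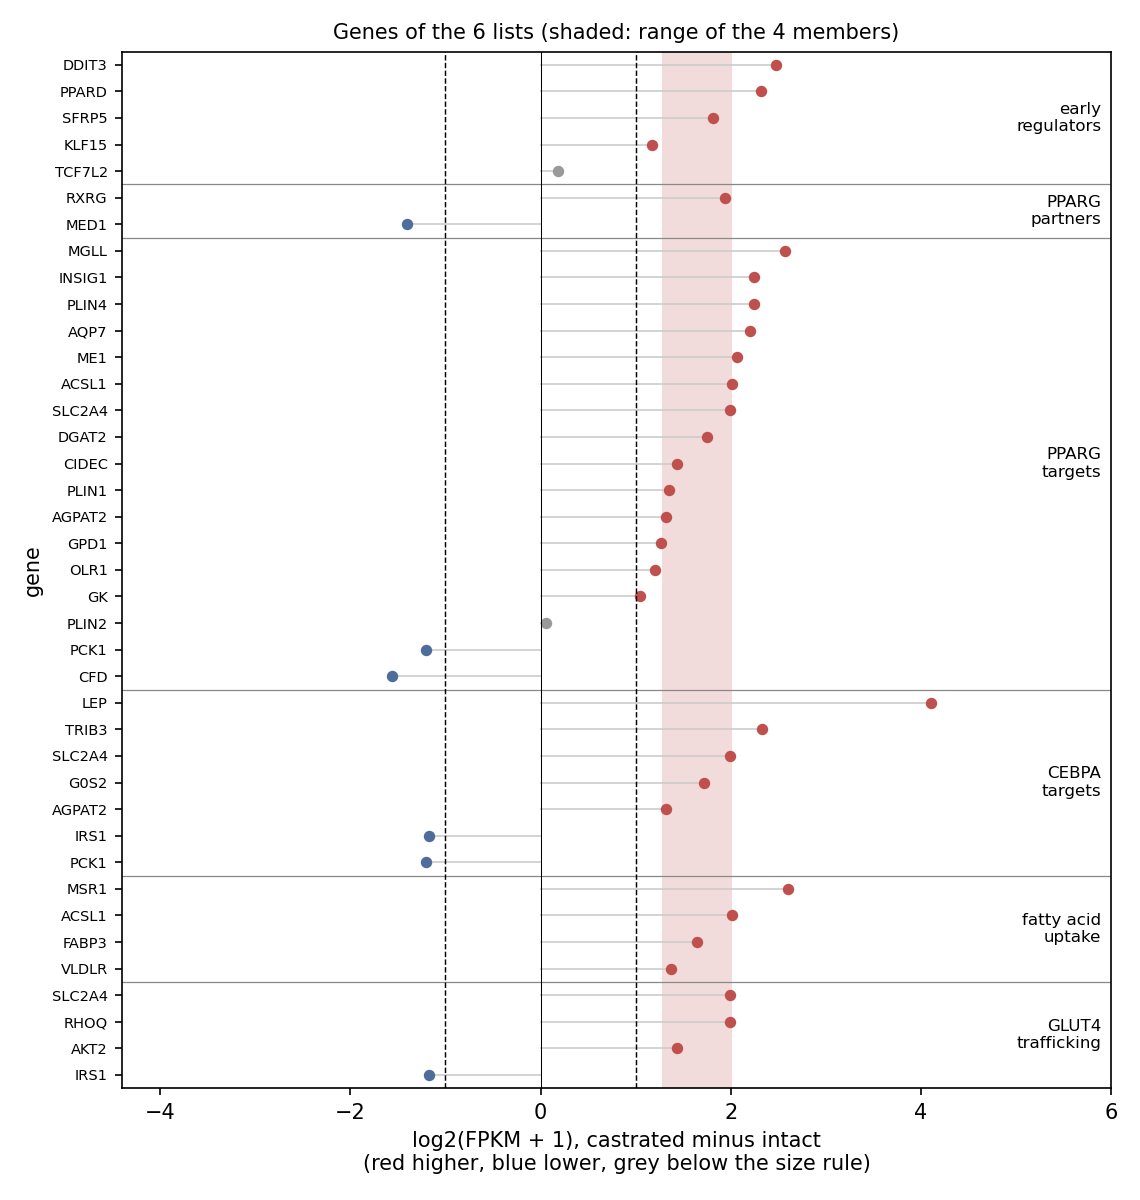
Difference in log2(FPKM + 1), castrated minus intact, of 33 listed genes of the 6 lists, sorted within a list; dashed lines mark the size rule and the shaded band the range of PPARG, CEBPA, CD36 and TUSC5. Of the 33 genes 27 lie above 1, and MED1, PCK1, CFD and IRS1 lie below -1.

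Of 26 early regulators 5 were listed, 4 higher and 1 in neither direction (median log2 difference 1.81). PPARD, a sister receptor of PPARG, had 3 listed transcripts, which summed to 30.5 FPKM in castrated and 5.30 FPKM in intact pigs, 5.76-fold higher. Its transcript of 3385 bases carried the gene at 24.6 FPKM in castrated and 5.30 FPKM in intact pigs, and the others were listed at 0 in intact pigs. DDIT3, a C/EBP family member that blocks DNA binding by its partners, stood at 39.1 FPKM in castrated and 6.18 FPKM in intact pigs. KLF15, a zinc finger factor that in mouse cells raises PPARG and GLUT4, stood at 22.8 FPKM in castrated and 9.54 FPKM in intact pigs. SFRP5, a secreted WNT inhibitor, was 3.58-fold higher. TCF7L2, a transcription factor of the WNT pathway, had a sum of 2.497 FPKM in castrated and 2.07 FPKM in intact pigs, over 1 transcript at 0 in intact pigs and others at 0 in castrated pigs.

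Of 20 partners and coregulators 3 were listed, 1 in each direction and 1 in neither. RXRG, a retinoid X receptor able to pair with PPARG, stood at 14.97 FPKM in castrated and 3.15 FPKM in intact pigs, 4.76-fold higher. MED1, the Mediator subunit that docks on liganded PPARG, was lower, at 0.184 FPKM in castrated and 2.14 FPKM in intact pigs. These low values are of 1 listed transcript, and the level of MED1 over all isoforms is not known. RXRA and RXRB, the other retinoid X receptors, were not listed, nor were PPARGC1A and NCOR1.

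PPARA, the third receptor of the PPAR family, stands on none of the lists and was added after its value was seen. It stood at 22.4 FPKM in castrated and 8.54 FPKM in intact pigs, 2.62-fold higher. The summed listed transcripts of PPARD and PPARA were each above PPARG in both groups. This order compares listed isoforms only, which for PPARG was 1 of several.

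The list of PPARG targets, known from mouse or human fat cells, held 45 genes without CD36 and TUSC5. It had 18 listed genes, 15 higher, 2 lower and 1 in neither direction (median log2 difference 1.59). ME1, the malic enzyme that makes NADPH, stood at 939 FPKM in castrated and 224 FPKM in intact pigs. ACSL1, which couples fatty acids to coenzyme A, summed to 701 FPKM in castrated and 173 FPKM in intact pigs over 4 transcripts, each of them higher in castrated pigs. AQP7, the glycerol channel of fat cells, was at 77.4 FPKM in castrated and 16.0 FPKM in intact pigs. The lipid droplet coat gene PLIN1 was 2.56-fold higher, at 392 FPKM in castrated and 153 FPKM in intact pigs, a ratio a little below that of PPARG itself. PLIN4, another coat gene, was 4.78-fold higher, CIDEC, which promotes droplet fusion, 2.71-fold, and GPD1, which makes glycerol 3-phosphate, 2.41-fold.

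Further PPARG targets differed at low levels or in the other direction. OLR1, a scavenger receptor, stood at 3.61 FPKM in castrated and 0.996 FPKM in intact pigs, and GK, a glycerol kinase, at 1.06 FPKM in castrated pigs and a listed 0 in intact pigs. The 2 lower targets were PCK1, the gluconeogenic enzyme that also feeds glycerol synthesis in fat, at 37.8 FPKM in castrated and 88.4 FPKM in intact pigs, and CFD, the complement factor adipsin, at 79.5 FPKM in castrated and 236 FPKM in intact pigs. PLIN2 passed in neither direction because its transcripts went opposite ways: the one of 1872 bases stood at 10.5 FPKM in castrated and 2.82 FPKM in intact pigs, the one of 1848 bases at 0 in castrated and 7.25 FPKM in intact pigs. FABP4, ADIPOQ and LIPE, targets that define fat cells, were not listed, and neither was the target LPL.

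Of 13 CEBPA targets 7 were listed, 5 higher and 2 lower (median log2 difference 1.72). LEP, the leptin gene, was 25.7-fold higher, the largest ratio among the listed genes of the 6 lists that were above 0 in intact pigs. TRIB3, a pseudokinase that binds AKT, stood at 15.8 FPKM in castrated and 2.35 FPKM in intact pigs. G0S2, an inhibitor of the lipase ATGL, was at 41.6 FPKM in castrated and 11.9 FPKM in intact pigs. AGPAT2, an acyltransferase of triglyceride synthesis that is also on the PPARG list, was at 40.9 FPKM in castrated and 15.7 FPKM in intact pigs. The lower genes were PCK1 and IRS1, the insulin receptor substrate, at 5.73 FPKM in castrated and 14.2 FPKM in intact pigs.

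Of 23 genes of fatty acid uptake around CD36, 5 were listed and all 5 were higher (median log2 difference 1.81). VLDLR, a receptor for triglyceride-rich lipoprotein particles, was at 51.2 FPKM in castrated and 19.1 FPKM in intact pigs. FABP3, a cytosolic fatty acid carrier, was listed at 10448 FPKM in castrated and 3338 FPKM in intact pigs, but its transcript was given a length of only 160 bases, at which FPKM is a poor measure of level. The ratio of 3.13 was near that of CD36. MSR1, a scavenger receptor of macrophages, was 8.13-fold higher, at 20.3 FPKM in castrated and 2.49 FPKM in intact pigs. None of the fatty acid transport proteins of the SLC27 family on the list was listed.

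Of 28 genes of GLUT4 trafficking around TUSC5, 5 were listed, 4 higher and 1, IRS1, lower (median log2 difference 1.83). SLC2A4, which encodes GLUT4 itself, stood at 47.7 FPKM in castrated and 11.2 FPKM in intact pigs. Its ratio of 4.26 was close to the 4.03 of TUSC5. RHOQ, which encodes the small GTPase TC10 of insulin-stimulated GLUT4 transport, was 4.04-fold higher, at 234 FPKM in castrated and 57.9 FPKM in intact pigs. AKT2, the insulin-responsive kinase of fat cells, was at 148 FPKM in castrated and 54.1 FPKM in intact pigs.

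The authors' own pathway annotation was also read, a choice made after the values were seen. It placed PPARG and CD36, but neither CEBPA nor TUSC5, in the KEGG PPAR signalling pathway. Of 17 listed genes in that pathway 14 were higher, 2 were lower and 1 passed in neither direction, with a median log2 difference of 1.35. PPARG and CD36 are among these genes, and PPARD, RXRG, GK and others were already counted on the lists above. The pathway count thus partly repeats earlier values and is no separate evidence. Over all listed genes 40.9% were higher and 39.3% lower, with a median log2 difference of 0.26. Pathway genes on none of the lists included ACOX2, a peroxisomal oxidase, at 7.85 FPKM in castrated and 2.49 FPKM in intact pigs. FABP7, a fatty acid carrier known from brain, stood at 5.10 FPKM in castrated and 0.292 FPKM in intact pigs. CYP7A1, known as the first enzyme of bile acid synthesis in liver, was the lower one beside PCK1, at 0.874 FPKM in castrated and 4.32 FPKM in intact pigs.

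Genes nearest to each member in their pair of values were found over 1716 genes with a symbol, by Euclidean distance on the log2(FPKM + 1) scale over the 2 groups. Nearest to TUSC5 were CDO1, a cysteine dioxygenase, at 328 FPKM in castrated and 77.0 FPKM in intact pigs (distance 0.21), then PLIN4 (0.22) and PINK1 (0.23). Nearest to CEBPA were PGD, an enzyme of the pentose phosphate pathway, at 226 FPKM in castrated and 78.1 FPKM in intact pigs (0.14), then ECHDC1 (0.14) and AGPAT6 (0.16). Nearest to CD36 were ABHD6, a monoacylglycerol hydrolase, at 28.3 FPKM in castrated and 8.16 FPKM in intact pigs (0.10), then SLC25A39 (0.15) and UBD (0.16). Nearest to PPARG were PRIM2 (0.11), a primase subunit at 14.0 FPKM in castrated and 4.72 FPKM in intact pigs, then AMZ2 and ALDH5A1 (both 0.13).

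The listed markers of fat cells were higher together with the members, and markers of other cell types differed in both directions. Of 12 markers of mature fat cells 7 were listed and all 7 were higher, with a summed level of 4403 FPKM in castrated and 902 FPKM in intact pigs, a ratio of 4.88. THRSP gave the largest part of that sum in castrated pigs, and CIDEC, at 306 FPKM, in intact pigs. Without THRSP the other 6 summed to 2063 FPKM in castrated and 700 FPKM in intact pigs, a ratio of 2.95. Of these 7 markers 6 are also on the pathway lists above. CFD, the adipsin gene among the PPARG targets, is not one of the 12 markers. It was lower, at 79.5 FPKM in castrated and 236 FPKM in intact pigs. ADIPOQ, FABP4 and LIPE, which define the cell type, were not listed. The fat cell markers read here were thus only PLIN1, PLIN4, CIDEC, GPD1, AQP7, LEP and THRSP. Of 11 markers of fibroblasts and progenitors 5 were listed and all 5 were lower, summing to 1720 FPKM in castrated and 16294 FPKM in intact pigs. Their part in the differences of PPARG, CEBPA, CD36 and TUSC5 was not tested.

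For CD36 the other cells that make it were looked at. Of 16 macrophage markers 3 (SPP1, LYZ and MSR1) were listed and all were higher, summing to 210 FPKM in castrated and 13.9 FPKM in intact pigs. SPP1 carried this sum, and LYZ and MSR1 alone gave 56.6 FPKM in castrated and 6.24 FPKM in intact pigs, while CD68, CD163 and CSF1R were not listed. Of 14 endothelial markers EGFL7 alone was listed, and it was lower, at 4.48 FPKM in castrated and 13.1 FPKM in intact pigs. None of 6 platelet markers was listed. Of 7 erythroid markers 3 were listed, all higher, and the globin gene HBB stood at 1383 FPKM in castrated and 130 FPKM in intact pigs. For TUSC5, which is also expressed in peripheral neurons, 1 of 8 neuron and Schwann cell markers was listed, UCHL1, at 37.1 FPKM in castrated and 2.87 FPKM in intact pigs. Of 8 skeletal muscle markers TCAP alone was listed, at 1.32 FPKM in castrated and 4.76 FPKM in intact pigs. The part of these cells in the CD36 and TUSC5 values was not tested.

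**Figure D5:**
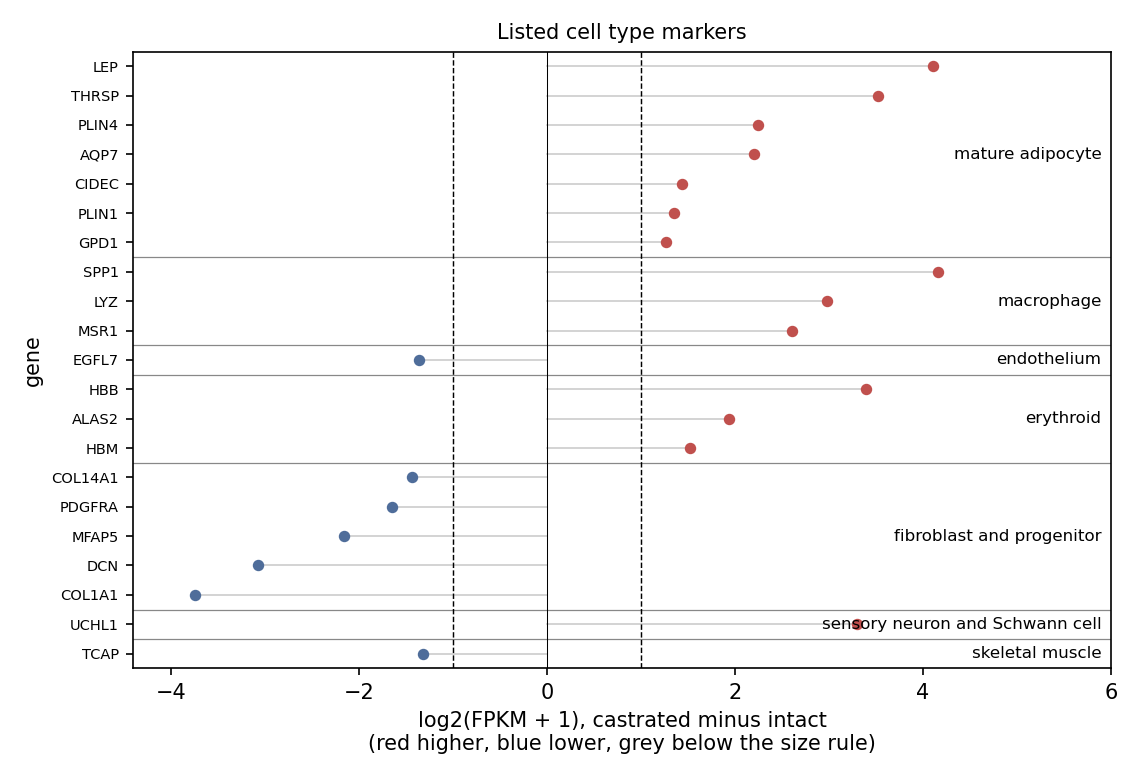
Difference in log2(FPKM + 1), castrated minus intact, of the listed markers of each cell type; dashed lines mark the size rule, and no platelet marker was listed. All 7 fat cell and 3 macrophage markers lie above 1, and all 5 fibroblast and progenitor markers lie below -1.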

How the data were processed

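RNA from backfat of castrated and intact pigs was depleted of ribosomal RNA and sequenced from strand-specific libraries, per the labels' protocols. TopHat2, Cufflinks and the build Sscrofa10.2 are named in the submitters' processing notes, with no role or version. The sources used here do not say how 3 pigs became 1 value. The authors deposited FPKM per transcript and group, a log2 fold change without a pseudocount (castrated over intact), p-values and q-values from their own test, and transcript lengths among other columns, per the file headers. The low values showed no whole-read steps, so depth is unknown and no interval was computed.

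FPKM was summed over the listed transcripts of a symbol and compared as log2(FPKM + 1), with a pseudocount of 1 that understates changes of low genes. Symbols came from the table and, for LOC identifiers, from the RefSeq table of Sscrofa11.1, used for names only (1946 of 2266 gene IDs matched). Named genes were the members, listed genes of the 6 lists, and the 3 nearest genes per member; exceptions are stated, and 3 list genes are counted but not reported here by name. The members and lists were chosen with earlier results of these data known. The circRNA table was not used. Python 3.11.15, numpy 2.4.6 and pandas 2.3.3 were used.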

Additional observations from a re-analysis of the deposited data

How the results depend on the processing

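The log2 differences of PPARG, CEBPA, CD36 and TUSC5 stayed positive under every alternative run. Of the 36 list genes, 4 turned direction when centred on the median of listed transcripts, of which 1, GK, had been higher past the rule, and 2, PLIN2 and TCF7L2, also did so when centred on the median of listed genes. The turn of GK, at a listed 0 in intact pigs, comes only from subtracting the shift on the log2(FPKM + 1) scale. No paired analysis was possible because each group holds 1 sample, and for the same reason no replicate could be left out. With a pseudocount of 5 PPARG stood at 0.89 and 3 of the 5 member transcripts passed; with a pseudocount of 0.1 the PPARG partners gave 2 genes higher. Centred on the median of listed transcripts, PPARG, CEBPA, CD36 and TUSC5 stood at 0.15, 0.45, 0.50 and 0.86, so 0 members and 0 member transcripts passed. The list genes higher were then 2 early regulators, 0 partners, 4 PPARG targets, 2 CEBPA targets, 1 of fatty acid uptake and 0 of GLUT4 trafficking. Of all 2247 listed genes 110 were higher and 1008 lower under that setting. Centred on the median of listed genes, a setting chosen after seeing the data, PPARG stood at 0.86 and 9 PPARG targets were higher. Of all 2247 listed genes 502 were then higher and 974 lower. Over the whole table a pseudocount of 5 left 490 transcripts higher and 392 lower. A minimum of 5 FPKM, no minimum, and the highest transcript per gene moved no count by over 1.5 times and ended no call of a member summed per gene; at 5 FPKM the shorter CD36 transcript lost its call, leaving 4 of 5. The depth is unknown, and no limit of detection can be given for any member.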

Other observations

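None of the 18 lncRNAs in the authors' deposited lncRNA table, with 42 named neighbouring genes, was assigned to PPARG, CEBPA, CD36 or TUSC5 or to a gene of the 6 lists. Among the 36 listed genes of the lists, 12 had more than 1 listed transcript, and in 2 of them, PLIN2 and TCF7L2, the transcripts differed in opposite directions. CEBPG, a further C/EBP family gene looked at after the values were seen, had 1 listed transcript of 4065 bases at 0.537 FPKM in castrated pigs and a listed 0 in intact pigs, below the size rule.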
